A study of Mus musculus with 6 samples.

Results

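Translation initiation and elongation factors are the proteins that bring ribosomes to the start codon of an mRNA and then move them along it. The genes described here are the protein-coding genes whose symbols begin with Eif1 to Eif6, Eef1 or Eef2, without the kinases that act on these factors, among array rows that carry 1 gene symbol. They number 57 of the 22180 genes measured, and the row with the highest mean over the 6 arrays stands for each gene. The genes were chosen by name and not by expression, whereas the row that stands for a gene was chosen by its mean level, which bears on the 4 members with several rows. Other members of these families, namely Eif1, Eif2s1, Eif3g, Eif4g1 and Eef1akmt4, were not analysed here, while Eif2s3x, Eif3j2 and Eif4ebp3 were read only by rows that carry several symbols.

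The material was RNA from pooled mouse embryonic hearts of strain C57BL/6 at embryonic day 9.5, hybridised to Affymetrix arrays. In 3 pools the embryos were Hdac3-flox/flox; Isl1-Cre, called Hdac3-Isl1KO, and in 3 pools they were Hdac3-flox/flox. Both groups therefore carry floxed Hdac3, and the controls lack Cre, so the presence of Isl1-Cre and the loss of Hdac3 cannot be told apart. Hdac3 encodes a histone deacetylase, and Isl1-Cre acts in cells that have expressed Isl1, among them the second heart field, so recombination touches part of the heart only. The sources used here state neither the number of hearts in a pool nor whether pools came from separate litters. A p-value here reads pool-to-pool spread, some of which may be technical.

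Initiation begins when eIF2, charged with GTP and the initiator tRNA, joins the small ribosomal subunit together with eIF1, eIF1A, eIF3 and eIF5. The cap-binding protein eIF4E, the scaffold eIF4G and the RNA helicase eIF4A load this complex onto the mRNA, and eIF5B joins the large subunit once the start codon is found. During elongation eEF1A delivers aminoacyl-tRNAs, the eEF1B subunits recharge it with GTP, and eEF2 moves the ribosome by a codon. The embryonic heart grows quickly at this stage and makes large amounts of contractile protein.

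Values are RMA log2 expression, a scale on which a difference of 1 is a doubling, and a difference is the Hdac3-Isl1KO mean minus that of Hdac3-flox/flox. With 3 arrays a group, precision is limited, and it also varies with the spread of each gene. Hdac3 itself read 9.11, 9.20 and 9.31 in Hdac3-Isl1KO, against 9.67, 9.73 and 9.64 in Hdac3-flox/flox, with no overlap, and its limma adjusted p of 0.0636 missed the threshold of 0.05. All 7 cardiomyocyte markers were measured, with means between 9.48 and 13.4, which matches the labelled tissue. Hdac3-flox/flox replicate 2 received the lowest array weight of the 6, 0.574, but the count of genes that passed, 95, fell with any array left out, to 25 without that one and to between 2 and 9 without each of the others.

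None of the 57 translation factor genes passed the test over all genes, in either direction (limma, adjusted p under 0.05), where 0.428% of all genes did, 0.23% higher and 0.198% lower. At an unadjusted limma p under 0.05 stood 13 members, 9 with higher and 4 with lower values in Hdac3-Isl1KO hearts, which is 22.8% of members beside 14.5% of all genes (6.57% higher and 7.96% lower). The groups did not overlap for 26 members, 19 higher and 7 lower, which is 45.6% beside 21.8% of all genes (9.41% higher and 12.4% lower). Members lie mostly among bright rows, 55 of 57 at or above the median row of 5.66, and among all genes that bright 18.1% had an unadjusted p under 0.05 and 29.5% had groups that did not overlap.

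The differences were small and leaned upward. Of the 57 members 43 were above 0, which is 75.4%, beside 11093 of all 22180 genes and 43.3% of genes at or above the median row. The median difference was 0.052, beside 0.000094 over all genes and -0.022 over the bright genes. The middle of the members was narrow, with the 25th percentile at 0.0080 and the 75th at 0.15, and the extremes were Eif4a2 at -0.35 and Eef1e1 at 0.42. In the cumulative plot of differences the members' curve lies to the right of both backgrounds at its 25th percentile, median and 75th percentile. The 25th and 75th percentiles were -0.10 and 0.11 over all genes, and -0.12 and 0.071 over the bright genes. Toward the extremes the curves were not compared.

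**Figure D1:**
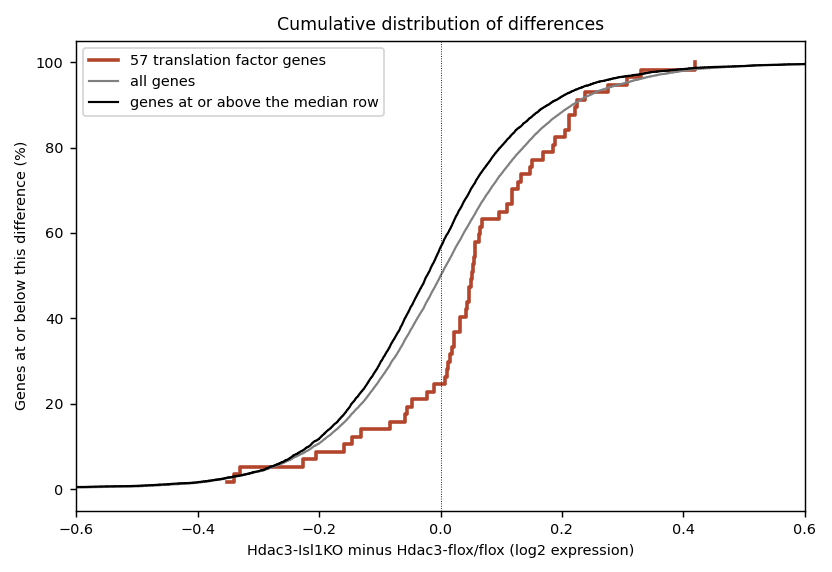
Cumulative share of genes (percent, vertical axis) at or below each log2 difference (Hdac3-Isl1KO minus Hdac3-flox/flox, horizontal axis) for the 57 translation factor genes, all genes, and genes at or above the median row. The members cross 50% at 0.052, against 0.000094 for all genes and -0.022 for the bright genes, and the axis stops before the largest changes of other genes.

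**Figure D2:**
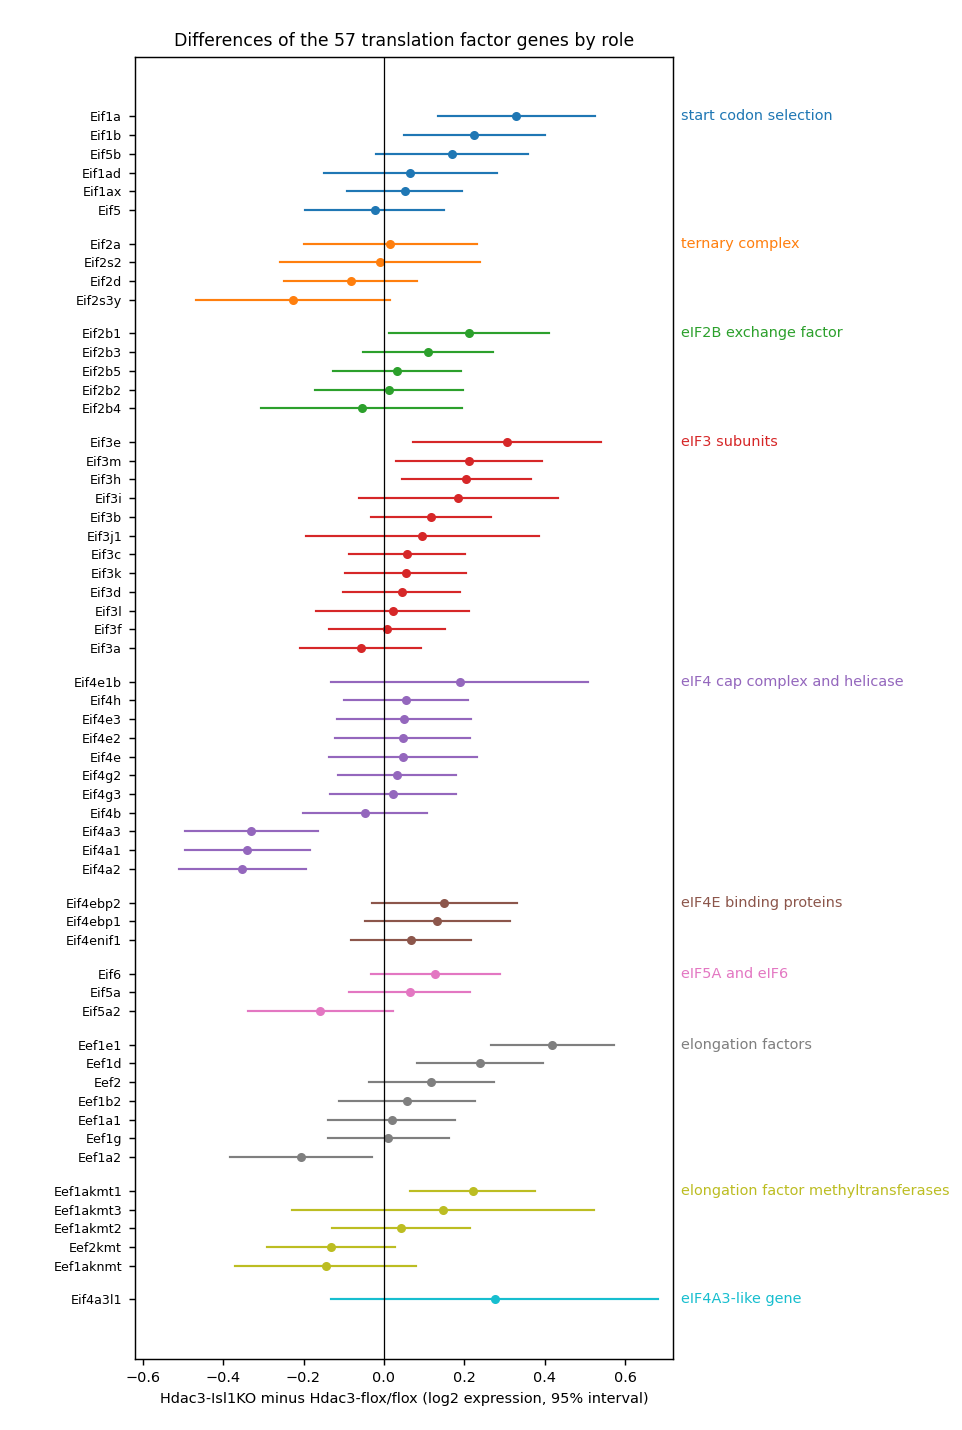
Difference of each of the 57 members (log2, horizontal axis, Hdac3-Isl1KO minus Hdac3-flox/flox) with its 95% interval from the limma fit, grouped by role. Eif4a1, Eif4a2 and Eif4a3 lie together near -0.34, and Eef1e1 lies farthest to the right at 0.42.

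The helicase eIF4A held the lowest members of the set. Eif4a1 and Eif4a2 encode near-identical forms of the helicase that unwinds leader sequences for the scanning ribosome, and Eif4a3 encodes a relative that marks spliced exon junctions. All 3 genes read lower in Hdac3-Isl1KO hearts than in controls, by amounts between -0.33 and -0.35, and none passed the adjusted threshold. Cross-reading between such close copies is possible, so their values may not be independent.

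Eif4a1 read 12.89, 12.91 and 12.92 in the Hdac3-Isl1KO arrays, against 13.28, 13.18 and 13.29 in the Hdac3-flox/flox arrays. The groups did not overlap, and the Hdac3-Isl1KO arrays lay within a narrow band. The means were 12.91 ± 0.02 and 13.25 ± 0.06 (SD, n = 3 each), a difference of -0.34 (95% interval -0.50 to -0.19), or 1.27-fold lower, with a limma adjusted p of 0.0978 (unadjusted p = 0.00130). A dimmer row of Eif4a1 differed by less, -0.12, at 9.86 ± 0.04 in Hdac3-Isl1KO and 9.98 ± 0.05 in Hdac3-flox/flox, again without overlap. The mean of the 2 rows differed by -0.23, and the size of the Eif4a1 difference depends on the row, at -0.34 or -0.12.

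Eif4a2 stood at 10.73, 10.78 and 10.70 in Hdac3-Isl1KO, against 11.08, 11.14 and 11.04 in Hdac3-flox/flox. Every Hdac3-Isl1KO array was below every control array. Its difference was -0.35 (95% interval -0.51 to -0.19), or 1.28-fold lower (limma adjusted p = 0.0972, unadjusted p = 0.00119). The dimmer Eif4a2 rows differed by -0.29 and -0.38, both without overlap, so all 3 rows that name Eif4a2 alone ran the same way. Rows with several symbols were read from a fit of all rows, 10.9% of which had no overlap and an unadjusted limma p under 0.05. Of the rows that name Eif4a2 with another gene, that shared with Snord2 differed by -0.46, that shared with Snora81 by -0.45 and that shared with Rfc4, a DNA replication clamp loader gene, by 0.20.

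For Eif4a3 the arrays gave 7.61, 7.50 and 7.46 in Hdac3-Isl1KO, against 7.88, 7.84 and 7.84 in Hdac3-flox/flox. These groups were apart too, with a difference of -0.33 (95% interval -0.50 to -0.16), or 1.26-fold lower (limma adjusted p = 0.121, unadjusted p = 0.00218). A brighter row that names Eif4a3 together with the similar gene Eif4a3l1 and the pseudogene Gm5576 gave another picture, at 9.77 ± 0.06 in Hdac3-Isl1KO and 9.73 ± 0.11 in Hdac3-flox/flox (SD, n = 3 each). Its difference was 0.036 (95% interval -0.18 to 0.26) and its groups overlapped. The lower reading of Eif4a3 therefore rests on 1 row. Eif4a3l1, read by its own row, ranged from 7.19 to 7.77 in Hdac3-Isl1KO and from 6.96 to 7.30 in Hdac3-flox/flox, a difference of 0.28 with overlapping groups (limma adjusted p = 0.519).

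**Figure D3:**
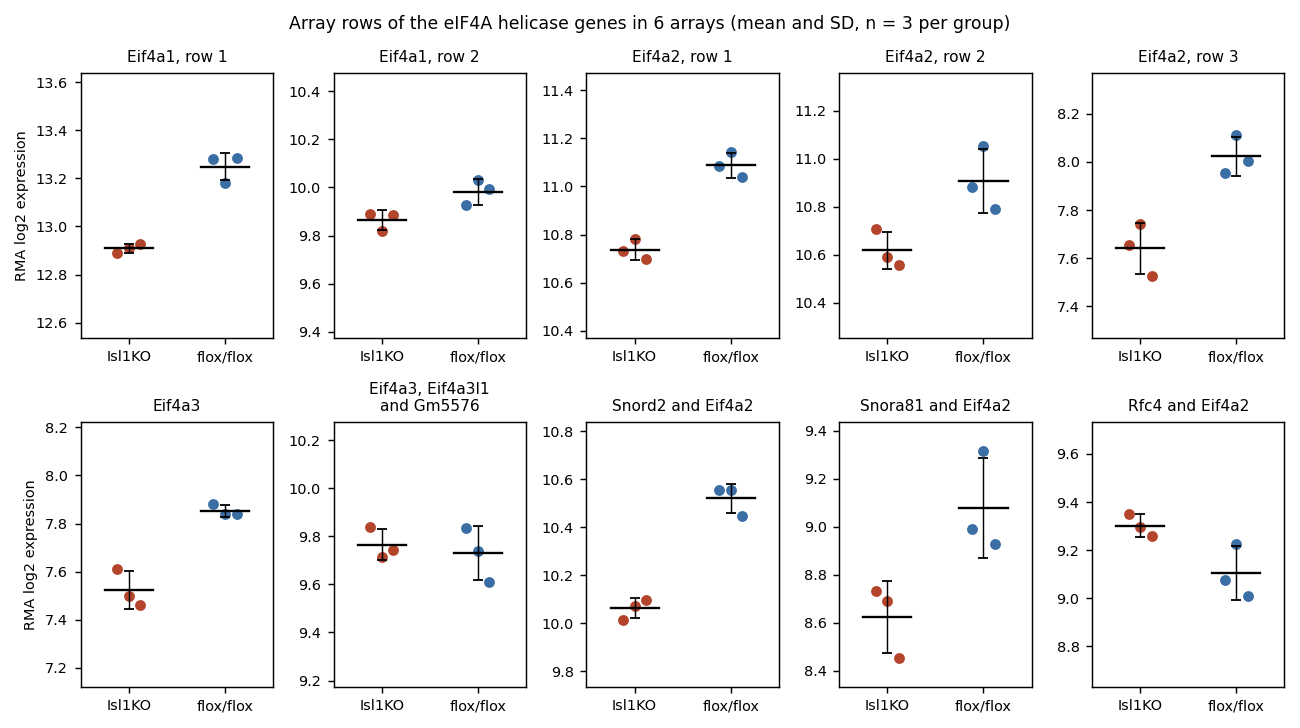
RMA log2 expression (vertical axes, each panel spanning the same log2 height) in 3 Hdac3-Isl1KO and 3 Hdac3-flox/flox arrays for every row that names Eif4a1, Eif4a2 or Eif4a3, with points for arrays, bars for means and whiskers for SDs. The rows of Eif4a1, Eif4a2 and Eif4a3 alone and those shared with Snord2 and Snora81 lie lower in Hdac3-Isl1KO, while the row shared with Eif4a3l1 overlaps at 9.77 and 9.73 and that shared with Rfc4 lies higher.

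The 3 eIF4A genes passed the adjusted threshold in the same direction when the variance prior was allowed a trend with expression, with limma adjusted p of 0.000370 for Eif4a1, 0.000943 for Eif4a2 and 0.0196 for Eif4a3, and when genes below the median row were left out (0.0187, 0.0185 and 0.0257). Under the other 13 alternatives none of the 3 passed, and over all of them the limma adjusted p ranged up to 0.302, 0.311 and 0.354. The trended prior called 7 of 57 members (12.3%), where it called 3.9% of all genes and 6.69% of genes at or above the median row. The fit above the median row called 5 of 55 members, where it called 4.94% of the genes it held. With the trended prior Eef1e1, Eif1a, Eef1d and Eif3h were the members called higher.

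The other alternatives called at most 1 member, Eef1e1. That call was made under quantile normalization, which called 0.649% of all genes, with array weights (1.1%) and above the 25th percentile row (1.33%). No member was called with the mean of a gene's rows (0.37%), with centred arrays (0.356%), among protein-coding genes alone (0.396%) or with the replicate block (0%). None was called with an array left out, where 0.0271%, 0.113% and 0.00902% of all genes were called without Hdac3-flox/flox replicates 1, 2 and 3, and 0.00902%, 0.0406% and 0.0225% without Hdac3-Isl1KO replicates 1, 2 and 3.

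The promoters of the 4 members with the smallest p-values are shown because 3 of them lay together at the low end and 1 at the high end. Each sequence is the 250 bases before the RefSeq start (build GRCm38.p6), written 5′ to 3′ on the gene's strand: Eif4a1 at chr11:69672424-69672673 (minus strand), Eif4a2 at chr16:23107218-23107467 (plus strand), Eif4a3 at chr11:119300044-119300293 (minus strand) and Eef1e1 at chr13:38659029-38659278 (minus strand). Capitals mark matches, on either strand, to the motifs searched: the E-box CACGTG bound by MYC family and related factors, the CCAAT box CCAAT, the TATA box TATAAA, the GC box GGGCGG, the ETS site CCGGAAG, the cAMP response core TGACGT, an NRF1 site core GCGCATGC and a YY1 core AAGATGG.
Eif4a1: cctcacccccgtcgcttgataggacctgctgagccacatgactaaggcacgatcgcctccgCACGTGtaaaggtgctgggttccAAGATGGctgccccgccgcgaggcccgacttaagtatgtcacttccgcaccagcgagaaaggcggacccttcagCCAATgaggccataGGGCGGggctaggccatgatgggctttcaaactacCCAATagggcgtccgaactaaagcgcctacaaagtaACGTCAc
Eif4a2: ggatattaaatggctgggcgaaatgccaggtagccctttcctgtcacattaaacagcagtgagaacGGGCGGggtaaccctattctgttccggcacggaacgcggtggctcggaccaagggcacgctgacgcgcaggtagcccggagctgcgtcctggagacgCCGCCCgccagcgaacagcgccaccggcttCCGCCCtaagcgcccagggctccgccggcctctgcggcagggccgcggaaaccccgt
Eif4a3: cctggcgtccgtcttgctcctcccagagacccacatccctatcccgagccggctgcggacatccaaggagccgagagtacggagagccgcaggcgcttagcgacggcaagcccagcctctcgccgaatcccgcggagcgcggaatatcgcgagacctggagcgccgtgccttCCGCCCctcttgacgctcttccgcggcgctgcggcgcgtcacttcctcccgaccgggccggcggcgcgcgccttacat
Eef1e1: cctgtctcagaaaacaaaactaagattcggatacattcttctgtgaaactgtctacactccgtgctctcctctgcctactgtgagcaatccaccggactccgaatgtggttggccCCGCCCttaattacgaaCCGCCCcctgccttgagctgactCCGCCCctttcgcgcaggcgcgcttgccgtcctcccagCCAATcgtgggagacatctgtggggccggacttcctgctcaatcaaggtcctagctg

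The 4 promoters had the GC box in common and otherwise differed. Eif4a1 held 6 matches, with an E-box beginning 189 bases before the start, a YY1 core at 166, CCAAT boxes at 92 and 43, a GC box at 78 and a cAMP response core at 7. Eif4a2 held 3 GC boxes and Eif4a3 held 1, at 78 bases before the start. Eef1e1 held 3 GC boxes and a CCAAT box. No TATA box, ETS site or NRF1 core, as spelled here, lay in any of the 4 windows, and no match in these windows overlapped another.

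RefSeq promoters were matched by symbol for 43 of the 57 members, with 55 start sites, against 32851 start sites of all genes. An E-box lay in 21.8% of the members' windows and 6.02% of all windows, a GC box in 67.3% and 32.7%, an ETS site in 20.0% and 6.91%, and a cAMP response core in 18.2% and 6.47%. The CCAAT box (25.5% and 33.8%) and the TATA box (7.27% and 12.4%) were less frequent in the members' windows, the YY1 core stood at 5.45% and 4.49%, and the NRF1 core at 7.27% and 2.26%. The members' windows were also richer in G and C, with a median of 62.8% beside 52.4% of all windows, which moves with the shares of GC-rich motifs, and its part in them was not tested. A match to these letters is a description of sequence and not a binding site.

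The highest member, Eef1e1, is grouped with the elongation factors here by its symbol. Eef1e1 encodes a small protein also called AIMP3 that sits in the multi-tRNA-synthetase complex, which supplies charged tRNAs. It read 10.80, 10.71 and 10.71 in Hdac3-Isl1KO, against 10.33, 10.30 and 10.34 in Hdac3-flox/flox. The groups lay far apart for their spread, at 10.74 ± 0.05 and 10.32 ± 0.02 (SD, n = 3 each). The difference was 0.42 (95% interval 0.27 to 0.57), or 1.34-fold higher, with an unadjusted limma p of 0.000349, the 133rd smallest of all genes, and an adjusted p of 0.0572. Quantile normalization took it past the threshold (limma adjusted p = 0.0484), as did array weights (0.0358) and fits restricted to genes above the 25th percentile row (0.0287) or the median row (0.00884), and its adjusted p ranged from 0.000288 to 0.224 over all alternatives, with differences between 0.39 and 0.43.

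Eef1d, a subunit of the eEF1B exchange complex that recharges eEF1A, read 9.86, 9.90 and 9.81 in Hdac3-Isl1KO, against 9.58, 9.60 and 9.66 in Hdac3-flox/flox. The groups did not overlap, with a difference of 0.24 (95% interval 0.082 to 0.39, limma adjusted p = 0.196). The other eEF1B subunits had smaller differences: Eef1b2 differed by 0.057 (95% interval -0.11 to 0.23) and Eef1g by 0.010 (-0.14 to 0.16), with overlapping groups. Eef2, the translocation factor, stood at 12.42 ± 0.06 in Hdac3-Isl1KO and 12.30 ± 0.01 in Hdac3-flox/flox (SD, n = 3 each), a difference of 0.12 without overlap (limma adjusted p = 0.466).

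eEF1A has 2 forms, and the sign of the Eef1a1 difference depended on processing. Eef1a1, the common form, read 13.31, 13.26 and 13.22 in Hdac3-Isl1KO, against 13.19, 13.28 and 13.27 in Hdac3-flox/flox, which overlapped (difference 0.019, 95% interval -0.14 to 0.18). It was -0.020 with the mean of its rows, and -0.010 without Hdac3-flox/flox replicate 1 and -0.0025 without Hdac3-Isl1KO replicate 1. Eef1a2, the form that adult muscle and neurons use, read 7.34, 7.21 and 7.21 in Hdac3-Isl1KO, against 7.52, 7.39 and 7.48 in Hdac3-flox/flox. Its groups did not overlap and its difference was -0.21 (95% interval -0.38 to -0.029, limma adjusted p = 0.284). Eef1a1 has processed pseudogenes that probes can read with it. A dimmer row of Eef1a1 differed by -0.058, a row shared with the pseudogene Gm6548 by 0.056 and a row shared with the pseudogene Gm7614 by 0.54. Of the 7 genes grouped as elongation factors, Eef1e1 among them, 6 had positive differences, 0 passed the adjusted test and the median was 0.057.

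Among the methyltransferases that modify elongation factors, Eef1akmt1, which methylates a lysine of eEF1A, read 7.72, 7.80 and 7.79 in Hdac3-Isl1KO, against 7.52, 7.53 and 7.60 in Hdac3-flox/flox. Its groups were apart (difference 0.22, 95% interval 0.065 to 0.38, limma adjusted p = 0.219). Eef2kmt, which acts on eEF2, was also without overlap but on the lower side (-0.13, limma adjusted p = 0.431). Eef1aknmt (-0.15), Eef1akmt2 (0.042) and Eef1akmt3 (0.15) overlapped, and Eef1akmt3, at a mean of 5.04 in Hdac3-Isl1KO and 4.89 in Hdac3-flox/flox, lay below the median row, where background weighs more.

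**Figure D4:**
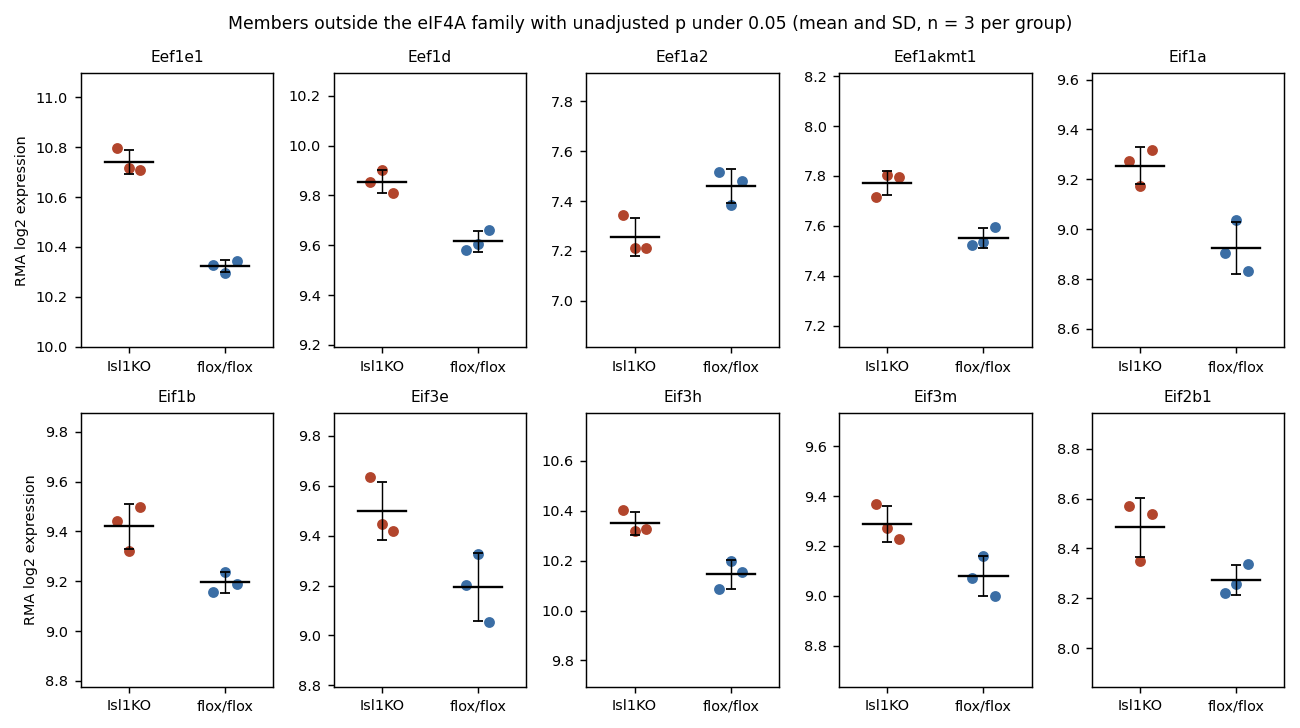
RMA log2 expression (vertical axes, each panel spanning the same log2 height) in 3 Hdac3-Isl1KO and 3 Hdac3-flox/flox arrays for the 10 members outside the eIF4A family with unadjusted limma p under 0.05, with bars for means and whiskers for SDs. The groups do not overlap in any of the 10 panels, and Eef1a2 alone among them is lower in Hdac3-Isl1KO. Choosing genes by p from these arrays favours groups that do not overlap, which held for 21.8% of all genes and 29.5% of the bright ones.

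The genes grouped with start codon selection, which include Eif5b of subunit joining and the eIF1A-like Eif1ad, leaned upward in Hdac3-Isl1KO hearts. Of 6 measured, 5 had positive differences, 4 had groups that did not overlap, 0 passed the adjusted test, and the median was 0.12, where 26 of all 57 members and 21.8% of all genes (29.5% of the bright ones) had groups that did not overlap. eIF1A steadies the scanning ribosome and eIF1 keeps it from stopping at wrong codons. The autosomal eIF1A gene Eif1a read 9.27, 9.17 and 9.32 in Hdac3-Isl1KO, against 8.90, 9.04 and 8.83 in Hdac3-flox/flox. Every Hdac3-Isl1KO array was above every control, by 0.33 on average (95% interval 0.14 to 0.52), or 1.26-fold (limma adjusted p = 0.166, from 0.0158 with the trended prior to 0.403 over all alternatives). Its X-linked copy Eif1ax read 10.03, 10.02 and 10.04 in Hdac3-Isl1KO, against 9.99, 9.96 and 9.98 in Hdac3-flox/flox. These groups did not overlap either, with a difference of 0.052 (95% interval -0.091 to 0.19). The intervals of the 2 genes overlapped, and whether they differ from each other was not tested.

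Eif1b, a paralogue of Eif1, read 9.443, 9.321 and 9.497 in Hdac3-Isl1KO, against 9.156, 9.239 and 9.190 in Hdac3-flox/flox. The groups were apart (difference 0.22, 95% interval 0.049 to 0.40, limma adjusted p = 0.252). Eif5b, the GTPase of subunit joining, differed by 0.17 without overlap (95% interval -0.020 to 0.36). Eif5, which triggers GTP hydrolysis by eIF2, differed by -0.023, and Eif1ad, which carries an eIF1A-like domain, by 0.065, both with overlapping groups.

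Of the eIF2 subunit genes, Eif2s2 and Eif2s3y had a row of their own, and both differences were below 0. Eif2s2, the beta subunit, differed by -0.010 (95% interval -0.26 to 0.24) with overlapping groups. Eif2a and Eif2d, which encode tRNA carriers apart from eIF2, differed by 0.016 and -0.083 and overlapped too. The gamma subunit of eIF2 has an X-linked and a Y-linked gene. Eif2s3y read 8.63, 8.26 and 8.39 in Hdac3-Isl1KO, against 8.67, 8.64 and 8.65 in Hdac3-flox/flox. The Hdac3-Isl1KO arrays were lower and more spread, with an SD of 0.19 beside 0.013, and the difference was -0.23 (95% interval -0.47 to 0.015, limma adjusted p = 0.375).

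Pools can differ in their share of male embryos, and the other sex-linked genes were read for that reason. The Y-linked gene Uty stood at 7.53, 7.30 and 7.30 in Hdac3-Isl1KO, against 7.53, 7.59 and 7.50 in Hdac3-flox/flox, and Kdm5d at 6.93, 7.01 and 7.12 in Hdac3-Isl1KO, against 7.11, 7.30 and 6.84 in Hdac3-flox/flox, a difference of -0.060. Xist, which is made from the inactive X of females, differed by -0.099. Hdac3-Isl1KO replicate 1 had the highest Eif2s3y and Uty readings of its group and the lowest Kdm5d reading, so the Y-linked genes did not order the arrays alike. The part of sex composition in the Eif2s3y difference was not tested. The 2 rows shared by Eif2s3x and the pseudogene Gm2223 differed by -0.031 and 0.070.

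eIF2B recharges eIF2 with GTP and is the point at which stress kinases slow initiation. Of its 5 subunit genes 4 had positive differences and 0 passed. Eif2b1, the alpha subunit that senses phosphorylated eIF2, read 8.57, 8.35 and 8.54 in Hdac3-Isl1KO, against 8.22, 8.26 and 8.34 in Hdac3-flox/flox. Its groups were separated by a narrow gap (difference 0.21, 95% interval 0.013 to 0.41, limma adjusted p = 0.315). Eif2b3 differed by 0.11 without overlap, and Eif2b2 (0.012), Eif2b4 (-0.055) and the catalytic subunit gene Eif2b5 (0.032) overlapped.

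eIF3 is the large scaffold that binds the small ribosomal subunit and bridges it to eIF4G. Of its 12 measured subunit genes 11 had positive differences, 6 of them without overlap, and Eif3a (-0.058) was the exception, also without overlap. Among all genes 11093 of 22180 were above 0, 9.41% were higher without overlap and 12.4% lower without overlap. Among genes at or above the median row 43.3% were above 0 and 29.5% had no overlap in either direction. Among all 57 members 43 were above 0, 19 were higher without overlap and 7 lower without overlap. No eIF3 gene passed the adjusted test, and the median was 0.076. Eif3e read 9.63, 9.45 and 9.42 in Hdac3-Isl1KO, against 9.20, 9.32 and 9.05 in Hdac3-flox/flox. Its groups did not overlap, although both were more spread than most members (difference 0.31, 95% interval 0.073 to 0.54, or 1.24-fold higher, limma adjusted p = 0.244).

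Eif3h read 10.40, 10.32 and 10.33 in Hdac3-Isl1KO, against 10.08, 10.20 and 10.15 in Hdac3-flox/flox. Eif3m read 9.37, 9.27 and 9.23 in Hdac3-Isl1KO, against 9.07, 9.16 and 9.00 in Hdac3-flox/flox. Both genes were without overlap, with differences of 0.20 (limma adjusted p = 0.253) and 0.21 (0.282). The products of Eif3e, Eif3h and Eif3m belong to the structural body of mammalian eIF3, as do those of Eif3a and Eif3c (0.057), the second of which was without overlap. So do those of Eif3f (0.0080), Eif3k (0.054) and Eif3l (0.022), whose groups overlapped. Eif3b (0.12), which binds Eif3i outside that body, and Eif3d (0.044), which can bind caps, were without overlap. A dimmer row of Eif3d, at 5.75 in Hdac3-Isl1KO and 5.90 in Hdac3-flox/flox, differed by -0.15 with overlapping groups. Eif3i (0.18) and the loosely held Eif3j1 (0.096) overlapped, and the row that Eif3j1 shares with its copy Eif3j2 differed by 0.23 without overlap.

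In the cap-binding complex outside the helicase no gene had an unadjusted p under 0.05. Eif4e, the cap-binding protein itself, read 10.48, 10.53 and 10.39 in Hdac3-Isl1KO, against 10.32, 10.49 and 10.46 in Hdac3-flox/flox. The groups overlapped (difference 0.047, 95% interval -0.14 to 0.23). Its relatives Eif4e2, which represses rather than drives initiation, read 9.13, 9.00 and 9.12 in Hdac3-Isl1KO, against 9.02, 9.09 and 9.00 in Hdac3-flox/flox, and Eif4e3 read 6.32, 6.38 and 6.23 in Hdac3-Isl1KO, against 6.28, 6.22 and 6.28 in Hdac3-flox/flox. Both overlapped, with differences of 0.047 and 0.050. The oocyte form Eif4e1b (0.19) had a mean of 4.87 in Hdac3-Isl1KO and 4.68 in Hdac3-flox/flox, below the median row.

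The scaffold genes Eif4g2 (0.033, 95% interval -0.11 to 0.18) and Eif4g3 (0.022, -0.13 to 0.18) overlapped as well. So did Eif4b (-0.047, 95% interval -0.20 to 0.11) and Eif4h (0.056, -0.098 to 0.21), whose products stimulate the helicase. The interval of Eif4b overlapped those of Eif4a1, Eif4a2 and Eif4a3, and a difference between the helicase genes and these partners was not tested.

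The eIF4E-binding proteins hold eIF4E away from eIF4G until mTORC1 phosphorylates them. Eif4ebp1 read 10.18, 10.24 and 10.31 in Hdac3-Isl1KO, against 10.03, 10.20 and 10.11 in Hdac3-flox/flox, which overlapped. Eif4ebp2 read 9.09, 9.05 and 9.08 in Hdac3-Isl1KO, against 8.95, 9.01 and 8.80 in Hdac3-flox/flox, which did not. The differences were 0.13 (95% interval -0.048 to 0.31) and 0.15 (-0.030 to 0.33). The row that Eif4ebp3 shares with Ankhd1 differed by -0.071. Eif4enif1, which carries eIF4E into the nucleus and to stored mRNAs, differed by 0.068 without overlap.

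eIF5A carries the modified amino acid hypusine and helps ribosomes past stretches such as prolines. Eif5a read 10.56, 10.47 and 10.53 in Hdac3-Isl1KO, against 10.47, 10.45 and 10.44 in Hdac3-flox/flox, and Eif5a2, its tissue-restricted copy, read 7.96, 7.88 and 7.83 in Hdac3-Isl1KO, against 8.07, 8.12 and 7.96 in Hdac3-flox/flox. Both pairs of groups overlapped, with differences of 0.064 (95% interval -0.086 to 0.21) and -0.16 (-0.34 to 0.022). Eif6, which keeps free large subunits from joining small ones, differed by 0.13 without overlap (95% interval -0.033 to 0.29).

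Several factors are made from TOP mRNAs, whose leaders begin with a pyrimidine tract and which cells translate according to growth signals. Of the 9 such factor genes listed, Eef1a1, Eef1b2, Eef1d, Eef1g, Eef2, Eif3e, Eif3f, Eif3h and Eif4b, 8 had positive differences and the median was 0.057, against 0.052 over all 57 members. Differences above 0 were held by 75.4% of the 57 members, 11093 of all 22180 genes and 43.3% of genes at or above the median row. Those of the 9 with an unadjusted limma p under 0.05 were Eef1d, Eif3e and Eif3h, which is 33.3%. That share was 22.8% of the 57 members, 14.5% of all genes and 18.1% of genes at or above the median row. Whether the TOP genes differ from the other members was not tested. These counts concern mRNA level, since the arrays do not read how well an mRNA is translated.

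Some factor genes hold in their span genes for small nucleolar RNAs (snoRNAs), which guide the enzymes that modify ribosomal RNA. By RefSeq positions, 7 members hold 14 such genes, of which 4 were read by a row of their own. Snora28, inside Eif5, stood at 8.34, 8.12 and 8.17 in Hdac3-Isl1KO, against 8.55, 8.80 and 8.75 in Hdac3-flox/flox, a difference of -0.49 without overlap (limma adjusted p = 0.105), where Eif5 differed by -0.023. Snord37, inside Eef2, differed by -0.35 without overlap (limma adjusted p = 0.268), where Eef2 differed by 0.12. Snora41, inside Eef1b2, differed by -0.24 without overlap, and Snora19, inside Eif3a, by -0.24 with overlap, where the hosts differed by 0.057 and -0.058.

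Each of these 4 snoRNA genes read lower than its host in the difference between groups, by -0.18 to -0.47. Among all genes 12.4% were lower without overlap, and 21.8% had no overlap in either direction. Whether snoRNA rows read lower in general was not tested, so these values do not set the 4 genes apart from other snoRNA genes. Eif4a1 and Eif4a2 also hold snoRNA genes, 3 and 5 of the 14, and none of these 8 had a row with 1 symbol. The rows of Eif4a2 shared with Snord2 and Snora81 are those given above, at -0.46 and -0.45. Whether snoRNA sequence is read by the Eif4a1 and Eif4a2 rows was not tested, since the position of the probes is not known here. Eif4a3 holds no snoRNA gene by those positions.

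**Figure D5:**
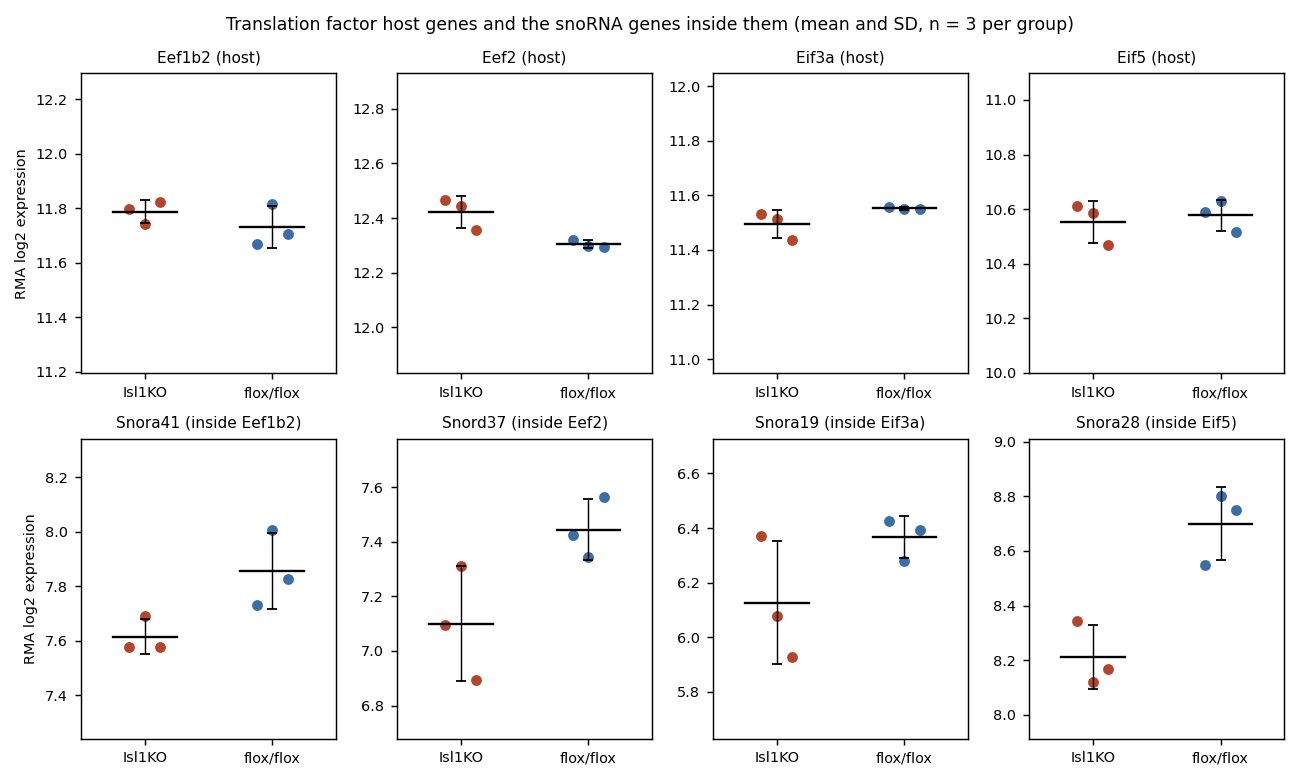
RMA log2 expression (vertical axes, each panel spanning the same log2 height) of 4 translation factor genes (top) and the snoRNA genes inside them (bottom) in 3 Hdac3-Isl1KO and 3 Hdac3-flox/flox arrays, with bars for means and whiskers for SDs. The snoRNA genes lie lower in Hdac3-Isl1KO by -0.24 to -0.49, with overlap for Snora19 alone, while the hosts differ by -0.058 to 0.12.

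The enzymes and partners around these factors were read from lists of 69 genes, of which 64 were measured. None passed the adjusted test (limma), 4 were higher and 5 lower at an unadjusted p under 0.05, which is 14.1% of them beside 14.5% of all genes, and the median difference was -0.018. Of the 7 genes for the eIF2 and eEF2 kinases and the eIF2 phosphatase regulators, Eif2ak3, the kinase PERK that answers stress in the endoplasmic reticulum, read 6.87, 7.03 and 6.75 in Hdac3-Isl1KO, against 7.17, 7.28 and 7.18 in Hdac3-flox/flox. Its groups did not overlap (difference -0.33, 95% interval -0.54 to -0.12, limma adjusted p = 0.191). Eef2k, the kinase that stops eEF2, differed by 0.23 (95% interval -0.016 to 0.48).

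Targets of the response to eIF2 phosphorylation were mixed. Of 12 measured, 7 were above 0 and the median was 0.034. Asns (0.17), for asparagine synthesis, and the transcription factor gene Atf3 (0.25) had positive differences, and Slc3a2 (-0.18), an amino acid transporter chain, and Phgdh (-0.24), for serine synthesis, had negative ones, all at unadjusted limma p between 0.0310 and 0.0372. Atf4, the central factor of that response, differed by 0.032 (95% interval -0.16 to 0.23). The mTORC1 and MNK list held 11 measured genes with a median of -0.042 and none at an unadjusted p under 0.05, Larp1 (0.16), which binds TOP mRNAs, and Tsc2 (-0.14) having the smallest.

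Denr and Mcts1 encode the partners of a dimer that recycles ribosomes and reinitiates, and they differed in opposite directions. Denr read 9.12, 9.09 and 9.10 in Hdac3-Isl1KO, against 8.92, 8.87 and 8.92 in Hdac3-flox/flox. Mcts1 read 7.27, 6.90 and 6.96 in Hdac3-Isl1KO, against 7.32, 7.61 and 7.39 in Hdac3-flox/flox. Neither pair of groups overlapped, with differences of 0.20 (limma adjusted p = 0.223) and -0.40 (0.235).

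Of the 5 termination and rescue genes measured, the release factor GTPase gene Gspt2 read 6.96, 6.88 and 6.86 in Hdac3-Isl1KO, against 7.19, 7.29 and 7.30 in Hdac3-flox/flox, a difference of -0.36 without overlap (limma adjusted p = 0.0978), while its common form Gspt1 differed by 0.037 (95% interval -0.13 to 0.20) and Abce1, which splits ribosomes, by -0.068. The hypusine and diphthamide enzymes, which modify eIF5A and eEF2, had 5 of 6 above 0 and a median of 0.078. Dph2 and Dph7, both of the diphthamide pathway, differed by 0.16 (limma adjusted p = 0.318) and -0.16 (limma adjusted p = 0.357). The selenocysteine list had 2 of 5 above 0 and a median of -0.071, with Secisbp2, which binds the selenocysteine signal in mRNAs, at -0.15 and Sepsecs, which makes selenocysteine on its tRNA, at -0.14. The mitochondrial translation factors, which serve the separate ribosomes of that organelle, had 2 of 9 above 0 and a median of -0.090, with none at an unadjusted limma p under 0.05. The elongation factor gene Tsfm differed by -0.18 and the release factor gene Mtrf1l by -0.12.

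The make-up of the pools is open to difference, and in whole hearts fewer cells of a type and less RNA per cell cannot be told apart. Yolk sac and liver endoderm markers were higher in 8 of 8. Sums given here are the log2 of summed linear values, in which the brightest markers weigh most. For this list they lay between 9.13 and 9.20 in Hdac3-Isl1KO and between 8.58 and 8.79 in Hdac3-flox/flox. Of the 8 markers, 1 passed the adjusted threshold, Fgb (0.93, limma adjusted p = 0.0204). Their means lay between 4.84 and 6.61, with 3 below the median row. Epicardial markers were lower in 4 of 5, with sums between 10.40 and 10.46 in Hdac3-Isl1KO and between 10.82 and 10.91 in Hdac3-flox/flox. Of these, 1 passed the adjusted threshold, Upk3b (-0.94, limma adjusted p = 0.00895). Cardiomyocyte sums were 15.12 to 15.15 in Hdac3-Isl1KO and 15.16 to 15.18 in Hdac3-flox/flox, endothelial sums 11.81 in every Hdac3-Isl1KO array and 11.82 to 11.89 in Hdac3-flox/flox, and trophoblast sums, over 4 of 8 markers, 8.93 to 9.08 in Hdac3-Isl1KO and 8.83 to 8.92 in Hdac3-flox/flox. The trophoblast sum reads mainly 1 gene, Hand1, with means of 8.70 in Hdac3-Isl1KO and 8.54 in Hdac3-flox/flox (difference 0.16). Plac1 (0.19), Tpbpa (0.096) and Ascl2 (-0.044) were much dimmer, with means of at most 5.78 in either group. Primitive erythroid sums, over 4 of 7 markers, were 12.89 to 12.96 in Hdac3-Isl1KO and 12.86 to 12.96 in Hdac3-flox/flox. No marker was listed at 0, though 1 trophoblast marker lay below the 25th percentile row. The part of these differences in the values of the translation factor genes was not tested.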

How the data were processed

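Gene expression was measured on 6 arrays, 3 per group, from 100 ng of total RNA each. The deposited values are log2 expression. The submitters' processing notes name oligo and RMA, with no version. RMA corrects background, quantile normalizes and summarises probes, and it compresses differences of dim rows. Values ran from 1.43 to 14.2 and correlations between arrays from 0.980 to 0.989, with no duplicated array.

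Of 41345 rows, 23521 carried 1 symbol in the platform annotation, 1814 several and 16010 none listed. By gene number 23328 rows matched a RefSeq table (GRCm38.p6), used for gene types, snoRNA hosts and promoters. The brightest row stood for each of 1082 genes with several rows, 4 of them members. Each gene's difference was fitted in limma 3.58.1 under R 4.3.3 (lmFit, eBayes, two-sided, 4 residual degrees of freedom) over all 22180 genes with Benjamini-Hochberg adjustment, and the steps were tested on simulated data. Rows with several symbols were taken from a fit of all rows, added after the data were seen. Plots were drawn with matplotlib 3.10.9.

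Values by array are given for the members with the 12 smallest p-values, the sex-linked gene and paralogue pairs; Eif2b1 and, outside the members, Eif2ak3, Denr, Mcts1 and Gspt2 were given in addition. Beside the 2 smallest p-values of each partner list, Asns, Phgdh, Atf4 and Gspt1 were added once values were known. The members, roles and lists were chosen with earlier results of these data known. The alternatives tried were leaving out each array, blocking on the replicate number, and other normalizations, filters, rows, priors and weights.

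Deviations from group means gave no sign that replicate numbers pair the arrays, with correlations of -0.013, -0.086 and 0.040 for numbers 1, 2 and 3. With 3 arrays a group these correlations cannot exclude that pools of the same number shared a litter or batch.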

Additional observations from a re-analysis of the deposited data

Results flagged for a closer look

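Rows that carry several gene symbols lay outside the main comparison, and of the 10 that name a translation factor gene 3 had groups that did not overlap and an unadjusted limma p under 0.05 in a fit of all rows. Of all 41345 rows 10.9% met both criteria. The row shared by Eef1a1 and the pseudogene Gm7614 read 10.22, 10.10 and 9.93 in Hdac3-Isl1KO, against 9.45, 9.30 and 9.86 in Hdac3-flox/flox, a difference of 0.54 (95% interval 0.15 to 0.94, limma adjusted p over all rows = 0.307). The other Eef1a1 rows differed by -0.058 to 0.056. The row shared by Snord2 and Eif4a2 read 10.02, 10.07 and 10.10 in Hdac3-Isl1KO, against 10.56, 10.55 and 10.45 in Hdac3-flox/flox, a difference of -0.46 (limma adjusted p over all rows = 0.138), and that shared by Snora81 and Eif4a2 differed by -0.45 (0.307).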

How the results depend on the processing

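The count of 0 members called higher became 1 (Eef1e1) under quantile normalization, under array weights and above the 25th percentile row, 2 above the median row and 4 with the trended prior. The count of 0 called lower became 3 (Eif4a1, Eif4a2 and Eif4a3) in each of the last 2 settings. With any array left out both counts stayed 0, and so they did with every row tested separately. Calls over all genes, 95, were 0 with the replicate block, 144 under quantile normalization, 235 and 617 above the 25th percentile and median rows, 866 with the trended prior, 243 with array weights and 2 to 25 with an array left out. The correlations gave no sign that replicate numbers pair the arrays (Hdac3-Isl1KO replicate 1 correlated best with Hdac3-flox/flox replicate 2, at 0.12). With 3 arrays a group they cannot exclude such pairing. The replicate block called 0 members in each direction. The median difference of members, 0.052, was 0.074 under quantile normalization, 0.039 with arrays centred on their medians and 0.043 to 0.062 with an array left out (0.062 without Hdac3-flox/flox replicate 2). Centring also moved the median of all genes, to -0.013, so the members' median minus that of all genes was 0.052, as in the main fit.

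The sign held for 43 members under each of the 15 alternatives that included them. It turned for 14, each with a main unadjusted limma p of 0.385 or more. The replicate block, trended prior, level filters and protein-coding fit left each difference unchanged, so they could not turn a sign. Averaging rows could turn only the 4 members with several rows. Quantile normalization turned Eif2s2 (0.023) and Eif4g2 (-0.016), centring turned Eef1g (-0.0027), Eif2b2 (-0.0013) and Eif3f (-0.0051), and averaging rows turned Eef1a1 (-0.020) and Eif3d (-0.051). With an array left out, Eef1a1 ranged from -0.010 to 0.040, Eef1akmt3 from -0.032 to 0.24, Eef1g from -0.014 to 0.031, Eif2a from -0.053 to 0.069, Eif2b2 from -0.048 to 0.048, Eif2b4 from -0.13 to 0.048, Eif2s2 from -0.11 to 0.071, Eif3f from -0.0039 to 0.017, Eif3l from -0.033 to 0.081, Eif4e from -0.0049 to 0.083, Eif4g3 from -0.0092 to 0.053 and Eif5 from -0.054 to 0.021. Signal over background limits Eif4e1b and Eef1akmt3 most.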
